A study of Canis lupus familiaris with 26 samples.

Results

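SFRP1, SCUBE2, STRA6 and SEMA3B are 4 genes of the Wnt, Hedgehog, retinoid and semaphorin pathways, and their RNA was measured in stroma of canine simple mammary adenomas. They are 4 of the 18466 genes in the count matrix and 4 of the 3302 with a known symbol. They were chosen by name because earlier results of these same libraries showed large differences between adenoma-associated stroma (AAS) and normal stroma. Their differences between the groups are therefore given as a description, without a test. Their identifiers are ENSCAFG00000005737 for SFRP1, ENSCAFG00000007092 for SCUBE2, ENSCAFG00000017877 for STRA6 and ENSCAFG00000010719 for SEMA3B.

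A simple adenoma is a benign tumour that grows from the epithelium of the gland. The tumours arose spontaneously in 13 female dogs aged 6 to 13 years, were removed by surgery, and had been stored as formalin-fixed, paraffin-embedded (FFPE) blocks for 4 to 29 months. Laser-capture microdissection, which cuts chosen areas from a tissue section, gave 1 sample of AAS and 1 sample of normal stroma per dog, the latter taken beside unaltered glands on the slides that also held the adenoma. The labels call the AAS samples cancer-associated stroma. The normal stroma library of pair 14 held 83727 counts in all, and that pair was left out of the group comparison and is described apart. This left 12 libraries per group. Each sample is a mixture of cell types, so that fewer cells of a type and less RNA per cell cannot be told apart.

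The 4 genes act in signalling between cells. Wnt ligands are secreted lipid-modified proteins that bind frizzled receptors and can stabilize β-catenin, and SFRP1 is a secreted protein with a frizzled-like domain that binds Wnt ligands outside the cell. Hedgehog ligands also carry lipids, and SCUBE2 is a secreted protein that helps to release them from the cells that make them. Retinol circulates bound to a carrier protein, STRA6 is the membrane receptor that takes it into cells, and within cells retinol can be turned into retinoic acid, the ligand of nuclear receptors. SEMA3B is a secreted class 3 semaphorin, a guidance cue first known from growing axons that acts through neuropilin and plexin receptors. In the mammary gland, Wnt and Hedgehog signalling are known for their roles in exchanges between epithelium and stroma during development.

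Total estimated counts ranged from 759119 to 1602797 in the 12 normal stroma libraries and from 419770 to 1614120 in the 12 AAS libraries. In the AAS library of pair 7, 1 gene took 84.9% of 618441 counts, which left 93673 for all others. Among AAS libraries those of pairs 7, 10 and 15 had the smallest scaled sizes. Values below are normalized CPM, that is estimated counts per 1000000 of a library size that was scaled with TMM, edgeR's correction for differences in composition. As a floor, 3 counts were worth 1.53 to 6.37 CPM in normal stroma and 1.53 to 28.0 CPM in AAS, where the AAS libraries of pairs 7, 10 and 15 had floors of 28.0, 10.5 and 5.73 CPM. Floors and intervals cover counting error only.

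SFRP1 was higher in AAS in 11 of 12 dogs. In normal stroma its level was 0 CPM at the lowest, 5.83 at the median and 31.2 at the highest, and in AAS it was 9.89, 59.6 and 234 CPM. The groups overlapped, but 9 of the 12 AAS libraries lay above every normal stroma library. Normal stroma held 160 counts of SFRP1 in all, with 0 counts in the library of pair 12, and AAS held 1136. The means were 11.8 ± 11.2 CPM in normal stroma and 81.6 ± 68.7 CPM in AAS (SD, n = 12 each), and the fitted log2 fold change was 2.81 (standard error 0.53). Among the 4544 genes kept by the filter on low counts, 10 had a larger log2 fold change towards AAS.

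The exception for SFRP1 was pair 4, where normal stroma held 14 counts (29.7 CPM) and AAS 11 (9.89 CPM). The ratio of AAS to normal stroma in that dog was 0.333, with an exact 95% counting interval from 0.137 to 0.789. The normal stroma library of pair 4 had 45.3% of its counts in 1 gene and the fewest genes with at least 10 counts, 3341. The part of that library's makeup in the reversed direction was not tested. At the other end was pair 6, where SFRP1 went from 5.85 CPM in normal stroma to 234 CPM in AAS. In pair 7 both libraries held 2 counts, which the scaling turned into 3.33 and 18.7 CPM, so that the direction in that dog rests on the library sizes. Without pair 4 the fitted log2 fold change of SFRP1 was 3.09, and without pair 6 it was 2.47.

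STRA6 was detected in 1 of 12 normal stroma libraries and in all 12 AAS libraries. In normal stroma 11 of 12 libraries held 0 counts, and the library of pair 8 held 3 counts, or 2.35 CPM. In AAS the level was 6.96 CPM at the lowest, 21.0 at the median and 85.8 at the highest, from 1 to 101 counts per library. All 12 AAS libraries lay above all 12 normal stroma libraries, although the single count in the AAS library of pair 7, worth 9.34 CPM, was below the floor of that library. Of 7763 genes whose counts averaged 5 or more, 3 had AAS above normal stroma with no overlap, which is 0.0386%. STRA6 reached that average only through AAS and was chosen for this difference, so that the share is a description and no support.

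The 12 AAS libraries together held 428 counts of STRA6 and the 12 normal stroma libraries 3. After scaling by library size this was a ratio of 149, with an exact 95% counting interval from 50.7 to 725. The whole denominator came from pair 8. Without that dog normal stroma had no count, and STRA6 was at least 139-fold higher in AAS, with the floor of 3 counts taken over the group. The edgeR filter removed STRA6, and in a fit of the genes whose counts averaged 5 or more its log2 fold change was 6.59 (standard error 0.77), or 8.21 without pair 8. A fold change fitted against libraries at 0 depends on the prior count, and so does the standard error derived from it. In 11 of 12 dogs the counting interval of the ratio of AAS to normal stroma lay above 1. The remaining dog was pair 7, with 1 count of STRA6 in AAS and 0 in normal stroma. The highest AAS libraries for STRA6 were those of pairs 6, 12, 11 and 3, with 85.8, 74.9, 52.1 and 48.9 CPM, and their normal stroma libraries were all at 0.

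SCUBE2 was lower in AAS in 12 of 12 dogs. In normal stroma its level was 44.9 CPM at the lowest, 80.4 at the median and 113 at the highest, and in AAS it was 0, 6.90 and 27.2 CPM. No AAS library reached the lowest normal stroma library. AAS below normal stroma with no overlap was seen for 8 of the 4544 genes kept by the filter, which is 0.176%. The means were 77.7 ± 24.8 CPM in normal stroma and 8.72 ± 8.16 CPM in AAS (SD, n = 12 each), and the fitted log2 fold change was -2.99 (standard error 0.41). Among the 4544 genes 10 had a log2 fold change further below 0.

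SCUBE2 was the steadiest of the 4 genes among normal stroma samples, with 27 to 166 counts per library and a coefficient of variation of 31.9%, against 93.7% in AAS. The 3 AAS libraries without a count of SCUBE2 were those of pairs 7, 10 and 15, the smallest of the AAS libraries by scaled size. In the normal stroma of those dogs SCUBE2 stood at 44.9, 85.2 and 113 CPM, above the floors of the AAS libraries. The normal stroma library of pair 4 held 41 counts of SCUBE2. By scaled size it was smaller than the AAS library of pair 15 and larger than those of pairs 7 and 10. The part of depth in the zeros of the 3 AAS libraries was not tested. The AAS libraries with the most SCUBE2 were those of pairs 3 and 6, with 27.2 and 19.5 CPM against 94.95 and 65.5 CPM in the normal stroma of the same dogs. Without pairs 7, 10 and 15, a choice made after seeing the data, the fitted log2 fold change of SCUBE2 was -2.69 (standard error 0.36). In each of the 12 dogs the counting interval of the ratio lay below 1, which is a description of counting error and no support.

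SEMA3B was also lower in AAS in 12 of 12 dogs. In normal stroma its level was 8.49 CPM at the lowest, 39.5 at the median and 97.2 at the highest, and in AAS it was 0, 0.676 and 19.2 CPM. The groups overlapped, with 10 of 12 normal stroma libraries above every AAS library. The 2 normal stroma libraries within the range of AAS were those of pairs 4 and 9, at 8.49 and 10.6 CPM. AAS held 53 counts of SEMA3B in all, with 0 counts in 6 libraries, and normal stroma held 544. The means were 39.7 ± 25.4 CPM in normal stroma and 3.93 ± 6.58 CPM in AAS (SD, n = 12 each).

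The fitted log2 fold change of SEMA3B was -3.18 (standard error 0.67), and -3.96 (standard error 0.68) with the dog as a block. Among the 4544 genes 6 had a log2 fold change further below 0. The AAS libraries with the most SEMA3B were those of pairs 3 and 8, with 19.2 and 15.8 CPM, and their normal stroma held 97.2 and 62.6 CPM, the highest of that group. In 11 of 12 dogs the counting interval of the ratio lay below 1, and in pair 7, with 13 counts in normal stroma and 0 in AAS, it reached 1.84. In the dog assembly UU_Cfam_GSD_1.0, SEMA3B overlaps IFRD2 and LSMEM2, and SCUBE2 overlaps the uncharacterized LOC119865004. The strand setting of the counting is not given in the sources used here, so that reads of overlapping genes may not have been told apart, and the values of SEMA3B and SCUBE2 carry this uncertainty.

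**Figure D1:**
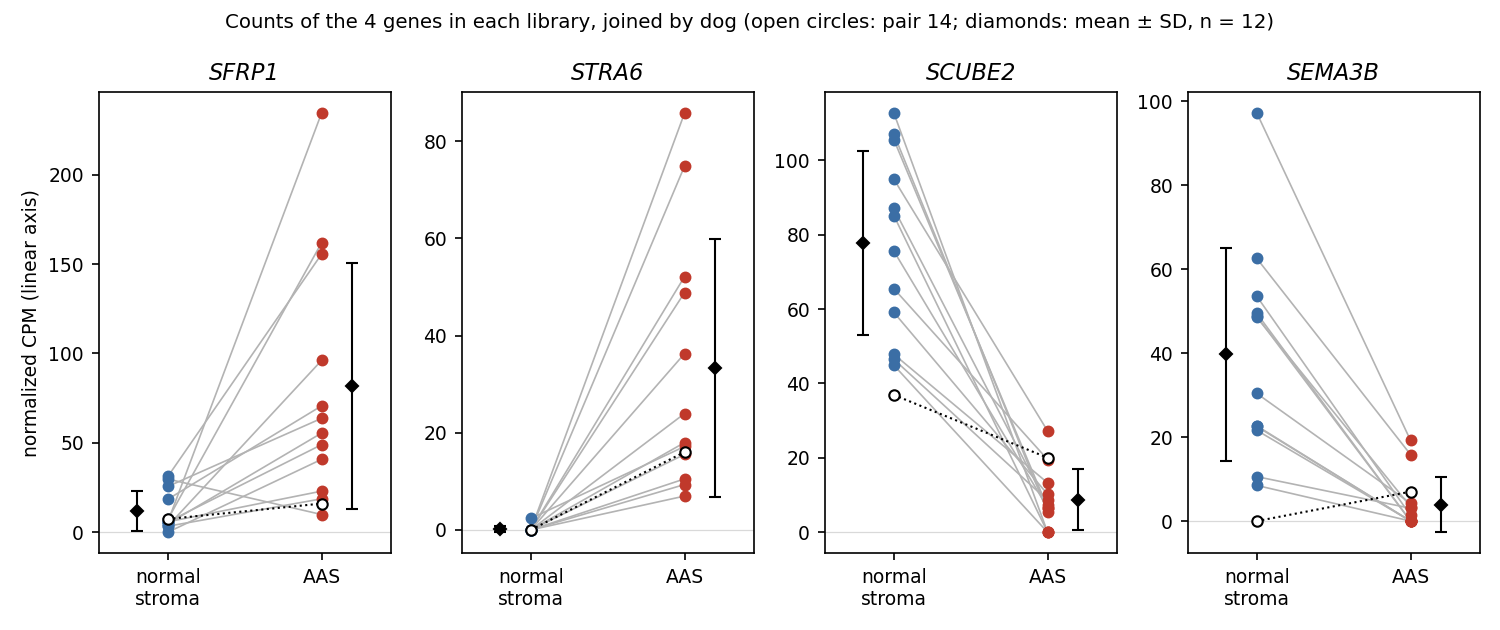
Normalized CPM of each gene in each library on a linear axis, with the normal stroma and AAS libraries of a dog joined by a line, and mean ± SD of 12 libraries beside them. SFRP1 and STRA6 were higher in AAS in 11 and 12 of 12 dogs, SCUBE2 and SEMA3B were lower in 12 of 12, and pair 14 is drawn with open circles.

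Within dogs the size of the difference varied. On the scale of log2 CPM with a prior count of 2, the difference of AAS minus normal stroma averaged 2.60 ± 1.76 for SFRP1, 3.73 ± 1.20 for STRA6, -3.31 ± 1.47 for SCUBE2 and -3.17 ± 1.11 for SEMA3B (SD, n = 12 dogs each). The prior count pulls these differences towards 0 where 1 of the libraries is at 0. SFRP1 ranged from -1.42 in pair 4 to 4.93 in pair 6. STRA6 ranged from 2.16 in pair 8 to 5.52 in pair 6. SCUBE2 ranged from -5.91 in pair 15 to -1.65 in pair 6, so that the dog furthest above 0 for SFRP1 and STRA6 was the one closest to 0 for SCUBE2. SEMA3B ranged from -4.75 in pair 10 to -1.33 in pair 9.

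**Figure D2:**
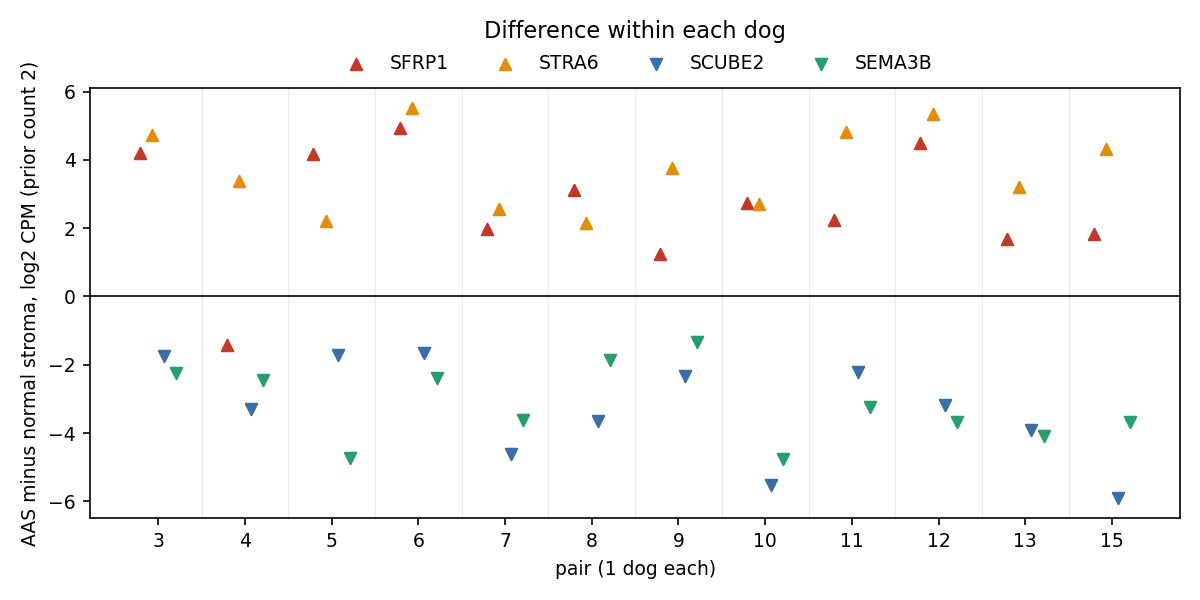
Difference between AAS and normal stroma in log2 CPM (prior count 2) for each of the 12 dogs, with 1 symbol per gene. SFRP1 and STRA6 lie above 0 and SCUBE2 and SEMA3B below 0 in all dogs, apart from SFRP1 in pair 4 at -1.42.

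Whether the 4 genes varied together among dogs was tested within each group and over the differences within dogs. Within a group, relations were computed only between genes with a count above 0 in at least 8 of 12 libraries. This left STRA6 out in normal stroma and SEMA3B out in AAS. For the differences within dogs it was enough that either group met this minimum, so that all 4 genes entered. The differences of STRA6 then follow mostly its AAS values, since 11 of 12 normal stroma libraries held 0 counts. Of 12 relations between pairs of the genes, 0 passed an adjusted p of 0.05 by Pearson's r or Spearman's rho (permutation test, two-sided, 100000 resamples, Benjamini-Hochberg). The lowest unadjusted p was that of SFRP1 with SCUBE2 in AAS, where rho was 0.627 (permutation p = 0.0338, adjusted p = 0.406) and r was 0.467 (permutation p = 0.127, adjusted p = 0.470). Without the 2 libraries farthest from the median of SFRP1, r was 0.533. In normal stroma r between SFRP1 and SCUBE2 was -0.12 (permutation p = 0.719, adjusted p = 0.719).

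The labels also give the age of each dog and the storage time of each block. Of 12 relations of SFRP1, SCUBE2, STRA6 and SEMA3B with these ages, 0 passed the adjusted threshold. The strongest by r was that of SCUBE2 in AAS with the age of the dog, at -0.56 (permutation p = 0.060, adjusted p = 0.412), with a rho of -0.58 (permutation p = 0.0539, adjusted p = 0.453). Without the 2 libraries farthest from the median r was -0.47. Without pair 7, the oldest dog, r was -0.39. In AAS 3 libraries were tied at 0 for SCUBE2, that of pair 7 among them. SCUBE2 in normal stroma gave -0.55 with the storage time of the block (permutation p = 0.0687, adjusted p = 0.412, rho -0.54 with permutation p = 0.0755 and adjusted p = 0.453), and without the 2 farthest libraries r was -0.15. With 12 dogs, relations of this size were not told apart from no relation.

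SFRP1 belongs to a group of secreted Wnt inhibitors, and the other Wnt genes were counted apart from it. Of 83 Wnt genes listed 15 had an identifier, SFRP1 among them, and the rest were not analysed. Of the 14 other than SFRP1, 7 were kept by the edgeR filter and 0 were called, against 82 of all 4544 genes (1.8%). A gene was called when its adjusted p was below 0.05 (edgeR's quasi-likelihood test, Benjamini-Hochberg) and its log2 fold change was above 1 or below -1. In the fit of 7763 genes whose counts averaged 5 or more, where 153 genes were called (1.97%), 10 Wnt genes were kept and 1 was called, DKK2. DKK2 codes for a secreted protein that binds the Wnt co-receptors LRP5 and LRP6.

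DKK2 stood at 0 CPM at the lowest, 1.03 at the median and 11.0 at the highest in normal stroma, and at 0, 17.8 and 58.4 CPM in AAS. It was higher in AAS in 11 of 12 dogs and lower in none, with groups that overlapped. DKK2 was removed by the edgeR filter. Its means were 2.51 CPM in normal stroma and 21.5 CPM in AAS. It thus reached an average of 5 counts mostly through AAS, which limits its call. Its log2 fold change was 2.94 with a standard error of 0.72 (adjusted p = 0.0167 by edgeR). The call was lost without pair 12 (adjusted p = 0.0646) or without pair 3 (adjusted p = 0.0521), and over all 12 dogs left out in turn the adjusted p ranged from 0.00929 to 0.0646. SFRP4, the other secreted frizzled-related gene with an identifier, had a median of 0 CPM in normal stroma and 3.15 CPM in AAS and was too low to be tested. WIF1, a gene for another secreted Wnt inhibitor and also too low to be tested, had a median of 0.832 CPM in normal stroma and 0 CPM in AAS and was lower in AAS in 6 dogs and higher in 3. RSPO1, a gene for a secreted enhancer of Wnt signalling, was at 0 in 9 libraries of each group. NKD1, a target gene, had a median of 11.1 CPM in normal stroma and 2.97 CPM in AAS and was lower in AAS in 10 of 12 dogs, with a log2 fold change of -0.94 and a standard error of 0.75 (adjusted p = 0.816 by edgeR). The receptor genes FZD1 and ROR2 had log2 fold changes of -0.21 and -0.39, the ligand gene WNT9B had 0.48 and the target gene MYC had -0.42 in the same fit, with adjusted p values from 0.898 to 0.975 by edgeR.

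Of 28 Hedgehog genes listed 10 had an identifier, and the rest were not analysed. Of the 9 other than SCUBE2, 4 were kept by the edgeR filter and 0 were called. With a mean of at least 5 counts, 8 were kept and 0 called. SCUBE3, a secreted relative of SCUBE2, stood at 21.6 CPM at the median in normal stroma and at 51.6 CPM in AAS, and its values overlapped between the groups. It was higher in AAS in 11 of 12 dogs, with a log2 fold change of 1.17 and a standard error of 0.37 (adjusted p = 0.112 by edgeR). DESeq2, which called 134 of the same 4544 genes (2.95%), called SCUBE3 (adjusted p = 0.0253), and so did DESeq2 with the dog as a block (adjusted p = 0.00767), which called 227 of them (5%).

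The third relative, SCUBE1, was at 0 in 10 normal stroma and 8 AAS libraries. The co-receptor gene BOC had a median of 25.8 CPM in normal stroma and 5.29 CPM in AAS (log2 fold change -1.30, standard error 0.63, adjusted p = 0.472 by edgeR). CDON, a relative of BOC, and the transcription factor gene GLI3 had log2 fold changes of -0.54 and -0.27, with adjusted p values of 0.814 and 0.935. GLI1 and PTCH1, which respond to Hedgehog signalling, and the transducer gene SMO were tested in the fit with a mean of at least 5 counts, with log2 fold changes of 0.29, -0.55 and 0.07 and adjusted p values from 0.922 to 0.990 by edgeR.

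Of 36 retinoid genes listed 8 had an identifier, and the rest were not analysed. Of the 7 other than STRA6, 3 were kept by the edgeR filter and 0 were called. With a mean of at least 5 counts, 6 were kept and 1 was called, CYP26B1, which codes for an enzyme that breaks down retinoic acid. CYP26B1 stood at 8.01 CPM at the lowest, 29.2 at the median and 54.8 at the highest in normal stroma, and at 0, 1.61 and 17.2 CPM in AAS. It was lower in AAS in 12 of 12 dogs, with groups that overlapped. CYP26B1 was removed by the edgeR filter. Its means were 28.4 CPM in normal stroma and 3.95 CPM in AAS. It thus reached an average of 5 counts mostly through normal stroma, which limits its call. Its log2 fold change was -2.90 with a standard error of 0.65 (adjusted p = 0.00659 by edgeR), and it was called without each dog in turn, with adjusted p values from 0.00531 to 0.0289.

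RXRB, a gene for a retinoid X receptor, had a median of 7.98 CPM in normal stroma and 20.3 CPM in AAS and was higher in AAS in 10 of 12 dogs (log2 fold change 1.47, standard error 0.55, adjusted p = 0.243 by edgeR). DESeq2 with the dog as a block called it (adjusted p = 0.0271), and DESeq2 without the block did not (adjusted p = 0.0929). Its relative RXRA had a log2 fold change of -0.31 (adjusted p = 0.961 by edgeR). DHRS3, which codes for a retinaldehyde reductase, had a log2 fold change of 0.71 with a standard error of 0.42 (adjusted p = 0.620 by edgeR). ALDH1A1, a gene for a retinaldehyde dehydrogenase, was at 0 in 10 libraries of each group.

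Of 45 semaphorin genes listed 17 had an identifier, and the rest were not analysed. Of the 16 other than SEMA3B, 13 were kept by the edgeR filter and 0 were called. With a mean of at least 5 counts 16 were kept and 0 called. SEMA3D, the other class 3 ligand gene with an identifier, had a median of 44.6 CPM in normal stroma and 26.9 CPM in AAS (log2 fold change -0.46, standard error 0.40, adjusted p = 0.824 by edgeR). The neuropilin genes NRP1 and NRP2, which code for receptors of class 3 semaphorins, had log2 fold changes of 0.16 and -0.71, with adjusted p values of 0.979 and 0.450. NRP2 was lower in AAS in 9 of 12 dogs. With the dog as a block its log2 fold change was -0.74 by edgeR (adjusted p = 0.159) and -0.72 by DESeq2 (adjusted p = 0.0371). Neither fit called it, since the log2 fold change was not below -1. Among plexin genes PLXNA1 and PLXNA4 had log2 fold changes of -0.42 and -0.73, and PLXNC1 and PLXND1 had 0.83 and 0.45, with adjusted p values from 0.708 to 0.885 by edgeR. FYN, a kinase gene downstream of these receptors, had a log2 fold change of -1.03 (adjusted p = 0.413 by edgeR).

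Over the 4 pathways, 27 genes other than SFRP1, SCUBE2, STRA6 and SEMA3B were kept by the edgeR filter. Of these 0 were called by edgeR and 1 by DESeq2. By edgeR 5 of the 27 had an unadjusted p below 0.05, or 18.5%, beside 477 of all 4544 genes, or 10.5%, and whether these shares differ was not tested. Their median log2 fold change was -0.40, where the median over all 4544 genes was 0.01. In the fit with a mean of at least 5 counts 2 of 40 were called, or 5.00%, beside 1.97% of all genes, with 1 in each direction, where 0.824% of all genes were called higher and 1.15% lower. The same 2 genes were called with the dog as a block, where 2.36% of all genes were called. Only genes with a symbol could enter the pathway lists. Genes with a symbol may be richer in genes that changed, which was not tested. The shares of the lists and of all genes are therefore not of like sets, and this holds for the marker lists too.

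**Figure D3:**
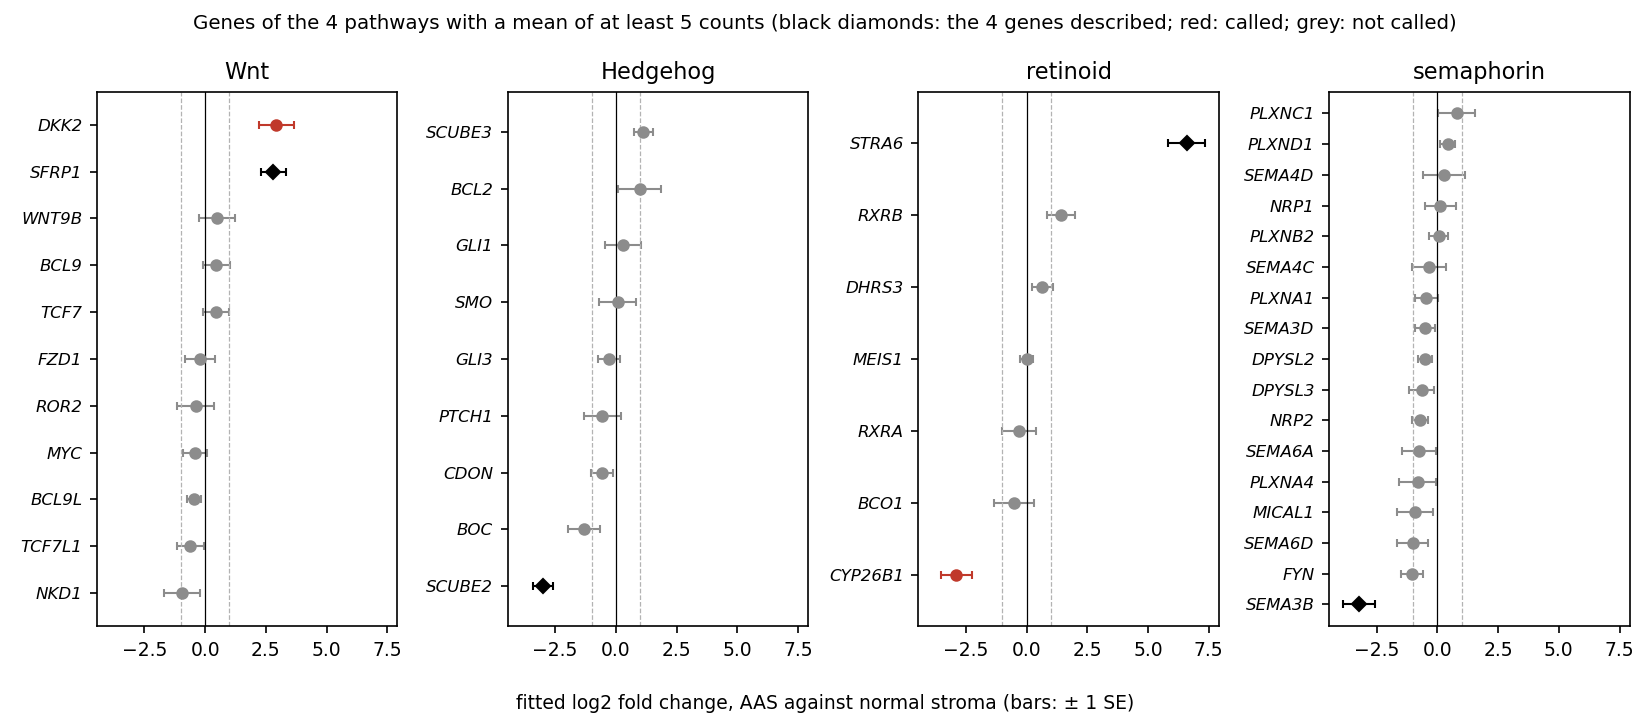
Fitted log2 fold change of AAS against normal stroma, with bars of 1 standard error, for genes of the 4 pathways whose counts averaged 5 or more. Of the 40 genes other than the 4 described (black diamonds), DKK2 and CYP26B1 were called (red), and the value of STRA6 depends on the prior count because 11 of 12 normal stroma libraries held no count of it.

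Markers of the cell types that the dissected areas could hold were measured in the same libraries. Of 8 fibroblast markers 7 had an identifier, 0 were called higher and 2 lower in AAS (1.19% of all genes were called lower), DCN (log2 fold change -1.96, adjusted p = 0.00996 by edgeR) and FBLN1 (log2 fold change -1.71, adjusted p = 0.00508 by edgeR), and 4 were called lower with the dog as a block (1.89% of all genes). The summed fibroblast markers ranged from 1326 to 21133 CPM in normal stroma (median 4987) and from 420 to 7053 CPM in AAS (median 2091), and were lower in AAS in 10 of 12 dogs. COL1A1 had the highest mean of these markers, 3781 CPM in normal stroma and 1579 CPM in AAS, and so weighed most in the sums. As single markers COL1A2, DCN, FBLN1 and MMP2 were each lower in AAS in 12 of 12 dogs. COL1A1 was lower in 10 dogs, COL3A1 in 9 and PDGFRA in 8. Beside these markers, SCUBE2 and SEMA3B were lower in AAS in 12 of 12 dogs, STRA6 was higher in 12 of 12 and SFRP1 in 11 of 12.

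Within groups, the relation of SCUBE2 to the summed fibroblast markers had an r of 0.552 in AAS (permutation p = 0.0645, adjusted p = 0.538, rho 0.486 with permutation p = 0.112 and adjusted p = 0.506), and 0.123 without the 2 farthest libraries. STRA6 in AAS had an r of 0.527 (permutation p = 0.0815, adjusted p = 0.538, rho 0.545 with permutation p = 0.0727 and adjusted p = 0.441), and 0.290 without the 2 farthest libraries. None of 18 relations of the 4 genes with the summed fibroblast, luminal and myoepithelial markers passed the adjusted threshold by r or rho. The part of the fibroblast content in the differences of the 4 genes was not tested.

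Epithelial RNA was present in both groups. Of 13 luminal markers KRT19, EPCAM, CDH1 and KIT had an identifier, 0 were called, and their sum ranged from 91.2 to 242 CPM in normal stroma and from 95.5 to 292 CPM in AAS, higher in AAS in 9 of 12 dogs. EPCAM and CDH1, which code for adhesion proteins of epithelial cells, were above 0 in all 24 libraries. MYLK, the only 1 of 8 myoepithelial markers with an identifier and one that smooth muscle also expresses, ranged from 4.25 to 116 CPM in normal stroma and from 18.7 to 148 CPM in AAS. ACTA2, for smooth muscle and pericytes, ranged from 4.10 to 112 CPM in normal stroma and from 9.34 to 274 CPM in AAS, and was not called. The 4 macrophage markers had sums of 342 to 878 CPM in normal stroma and 317 to 1195 CPM in AAS with 0 called. IRF4, for B and plasma cells, ranged from 78.6 to 213 CPM in normal stroma and from 107 to 500.5 CPM in AAS. TEK, for endothelium, ranged from 0 to 26.5 and from 0 to 28.2 CPM, and LEP, for adipocytes, was at 0 in 10 normal stroma and 9 AAS libraries. The part of these cell types in the levels of SFRP1, STRA6, SCUBE2 and SEMA3B was not tested.

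To show which genes varied most like each of the 4 from library to library, Pearson's r of log2 CPM was taken over 24 libraries after the mean of each group was subtracted, among the genes with a symbol that the edgeR filter kept. These are descriptions without a test, and both values of a library share its depth. SCUBE2 was most like SLIT3 (r = 0.843), NID1 (r = 0.805) and NBL1 (r = 0.804). SLIT3 codes for a secreted guidance protein, NID1 for a basement membrane protein and NBL1 for a secreted antagonist of bone morphogenetic proteins. For SLIT3 r was 0.896 among AAS and 0.300 among normal stroma libraries, so that the likeness lay mostly in AAS, where 3 libraries were at 0 for SCUBE2.

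SEMA3B was most like PIPOX (r = 0.724), ZCCHC24 (r = 0.675) and ADCY3 (r = 0.663), and for these 3 genes r ran from 0.600 to 0.664 among normal stroma libraries. Among AAS libraries r ran from 0.696 to 0.800, with 6 of the 12 tied at 0 for SEMA3B. STRA6 was most like ITGA11 (r = 0.650), a collagen-binding integrin gene, ELN (r = 0.641), the elastin gene, and FSTL1 (r = 0.627). For these genes r ran from 0.674 to 0.752 among AAS libraries and from 0.214 to 0.437 among normal stroma libraries, of which 11 of 12 were tied at 0 for STRA6. ITGA11 went the other way from STRA6 between the groups, with means of 81.9 CPM in normal stroma and 15.4 CPM in AAS. SFRP1 had the weakest likeness, with PMP22 (r = 0.563), SLF1 (r = 0.547) and CAND1 (r = 0.519).

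In pair 14 the normal stroma library was too shallow to set beside its AAS library. It held 1 count of SFRP1, 5 of SCUBE2 (36.9 CPM) and 0 of STRA6 and SEMA3B, and its floor was 22.2 CPM. The AAS library of that dog held 16 counts of SFRP1 (16.0 CPM), 20 of SCUBE2 (20.0 CPM), 16 of STRA6 (16.0 CPM) and 7 of SEMA3B (7.01 CPM), all within the range of the other 12 AAS libraries. The CPM of pair 14 come from a TMM scaling of all 13 pairs, and those of the other libraries from a scaling of 12 pairs. For each of the 4 genes the counting interval of the ratio within this dog included 1. In a fit of all 13 pairs the log2 fold changes were 2.74 for SFRP1, -2.83 for SCUBE2 and -3.02 for SEMA3B.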

How the data were processed

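RNA was sequenced with a stranded total RNA kit for low input. The authors quantified reads with kallisto 0.44.0 on Ensembl transcripts of CanFam3.1, with sequence bias correction, summed them per gene with tximport, and deposited estimated counts for 18466 genes in 26 libraries. The deposited estimated counts were whole numbers, so rounding changed none. Symbols came from the readable parts of supplementary tables of the study, which name 3302 identifiers and may be richer in genes that changed. Genes without an identifier there were not analysed here. No sequence or coordinate is given, since the reference tables at hand are of another assembly (UU_Cfam_GSD_1.0), used only for overlaps between genes.

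Counts of the 12 pairs were filtered with filterByExpr (4544 genes), scaled by TMM and tested in edgeR 4.0.16 (glmQLFit and glmQLFTest, R 4.3.3), without a term for the dog, since the study's methods name none. The call thresholds and the exclusion of pair 14 follow those methods. Log2 CPM carries a prior count of 2. For the sums of marker CPM, 1 was added before the logarithm. Permutation tests were coded with numpy 2.4.6, and counting intervals used scipy 1.17.1, under Python 3.11.15. No p-value is given for the 4 genes between the groups. The standard errors of edgeR fits are approximate. Each was derived as the absolute log2 fold change divided by the square root of the F statistic of the quasi-likelihood test. Alternatives were the dog as a block, DESeq2 1.42.0 with and without it, RLE scaling, other filters on low counts, all 13 pairs, each pair left out, and, for correlations, a prior count of 0.5. Leaving out pairs 7, 10 and 15 together was added after seeing the data. The fit was tested on simulated counts with known changes.

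Pair numbers join the samples of 1 dog, whose age, breed and storage time the labels repeat. The deviations of each library from its group mean had a mean correlation of 0.125 for libraries of the same dog and -0.00597 for libraries of different dogs. The dogs are the replicates. The biological coefficient of variation was 66.7%, and 61.5% with the dog as a block. For genes with many counts the spread between libraries, more than counting error, therefore limits the precision. Total counts are given with the results.

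The 4 genes, the pathway and marker lists and the tests were chosen with earlier results of these data known. The other genes named are those of the 4 pathway lists called by edgeR under the main filter, with the dog as a block or among genes whose counts averaged 5 or more, a fixed set of pathway genes whatever their values, the marker genes, and for each of the 4 the 3 genes most like it. FYN, MYC, WIF1 and NKD1, from the pathway lists, were named after their values were seen.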

Additional observations from a re-analysis of the deposited data

Results flagged for a closer look

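STRA6 was detected in the AAS library of pair 14, a dog that the group comparison left out. It held 16 counts, or 16.0 CPM, above the 2.35 CPM of the highest of the 12 normal stroma libraries, and within the range of the other AAS libraries. The normal stroma library of the same dog held 0 counts of STRA6, with a floor of 22.2 CPM, so that a level like that of its AAS library was not detectable there at its depth.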

How the results depend on the processing

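The directions of SFRP1, SCUBE2, STRA6 and SEMA3B were the same under each alternative that kept the gene. STRA6 was kept only without a filter or with a mean of at least 5 counts, so that it has no value under DESeq2, RLE scaling or all 13 pairs. With the dog as a replicate block the log2 fold changes were 2.93 for SFRP1, -3.25 for SCUBE2 and -3.96 for SEMA3B, and 115 genes were called, where 82 were called without it and 77 were in both. STRA6 had 6.96 with the block and a mean of at least 5 counts. With each pair left out in turn the log2 fold change ranged from 2.47 to 3.09 for SFRP1, from -3.24 to -2.81 for SCUBE2, from -3.61 to -3.01 for SEMA3B and from 6.26 to 8.21 for STRA6, the last without pair 8, when every normal stroma library was at 0. None of the 4 genes had at least 10 counts in every sample.

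The number of genes called was 134 with DESeq2, 227 with DESeq2 and the replicate block, 153 with a mean of at least 5 counts, 183 with that filter and the block, 1690 without a filter, and 14 with at least 10 counts in every sample, which left 898 genes. Leaving out each pair in turn gave 71 to 99. Of the pathway genes other than the 4, 0 were called with the main filter. DESeq2 called 1 (SCUBE3), and 2 with the block (SCUBE3 and RXRB). With a mean of at least 5 counts 2 were called with or without the block (DKK2 and CYP26B1). Without a filter 3 were called (DKK2, CYP26B1 and SCUBE1), where 1690 of all 18441 genes were called. SCUBE1 averaged 1.79 counts. Without pairs 7, 10 and 15, 1 was called (DKK2), where 93 of all 5381 genes were called. Leaving out each pair in turn gave 0 to 1 with the main filter, where DKK2 or CYP26B1 then passed the filter, and 1 to 2 with a mean of at least 5 counts. For DKK2 under that filter the dogs that decide the call are pairs 3 and 12. The cause of these differences was not tested, apart from the number of genes kept. No relation across dogs passed the adjusted threshold under a prior count of 0.5, RLE scaling or without pair 7. Depth limits the AAS library of pair 7 most, where 3 counts are worth 28.0 CPM.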
